A study of Homo sapiens with 6 samples.

Results

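The NF-kappaB pathway and its feedback genes were followed in human uveal melanoma cells cultured with or without activated T cells. The group held 34 genes chosen by symbol: receptors that switch the pathway on, adaptors and kinases, the NF-kappaB subunits, the IkappaB family, feedback regulators and other target genes. A gene was represented by its probe set with exactly 1 gene symbol in the array annotation, and by the one with the highest mean where it had several. Of the 34 genes, 32 had such a probe set, against 18417 genes on the whole array. BIRC3 and TRAF2 had none in the annotation used and were not analysed here. A gene was tested if its mean log2 value over the 6 arrays was at least 5.80, the 25th percentile of the annotated probe sets. This kept 31 of the 32 genes and 13808 genes in all, and TNIP3 fell below it.

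The study measured total RNA on 6 arrays from 3 established lines of human choroidal uveal melanoma, 92.1, Mel 270 and Mel 290. In the co-culture group (3 arrays, 1 per line) each line grew for 64 h in serum-free medium below an insert with a 0.4 µm porous membrane, which held a fixed number of T cells. The T cells came from the blood of healthy volunteers and had been activated with beads that carry antibodies to CD3 and CD28. In the group grown alone (3 arrays, 1 per line) the same lines were kept for 64 h in the same medium without T cells. All cells had first been grown in medium with fetal calf serum, and melanoma cells were scraped off for RNA. Wells began with 80000 cells for 92.1, fewer than the 100000 used for the other lines, and Mel 290 was confluent when the medium was changed while 92.1 and Mel 270 were not. The membrane lets soluble factors pass, so no line was in direct contact with T cells. With 1 array per line and condition, the 3 lines are the replicates, and p-values measure the spread between lines, not between repeat cultures.

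NF-kappaB is a family of transcription factors held in the cytoplasm by IkappaB proteins. Signals from receptors such as those for TNF activate the IkappaB kinases, IkappaB is degraded, and the freed dimers enter the nucleus. Many of the genes they switch on encode inhibitors of the same pathway, among them IkappaB alpha and the ubiquitin-editing enzyme of TNFAIP3, so that the response is self-limiting. A slower, non-canonical branch runs through CD40 or the lymphotoxin beta receptor, the kinase of MAP3K14 and the subunits of NFKB2 and RELB.

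The promoters of the genes on which the results turn are shown first, because the kappaB element is the DNA sequence that NF-kappaB dimers bind. The windows run from 250 bases before to 50 bases after a gene start of RefSeq (build GRCh38.p14), 5′ to 3′ on the strand of the gene. The first 5 windows below belong to the 3 genes that passed the test in co-culture, TNFAIP3, NFKBIZ and IL32, and to NFKBIA. NFKB1 stands for the subunits, and TNIP3 and TNFRSF1B for genes at least 4-fold higher in co-culture in Mel 270 and in no other line. Capitals mark matches to the kappaB consensus, a motif of 10 letters searched on both strands, with overlapping matches joined.
TNFAIP3, chr6:137867009-137867308, plus strand: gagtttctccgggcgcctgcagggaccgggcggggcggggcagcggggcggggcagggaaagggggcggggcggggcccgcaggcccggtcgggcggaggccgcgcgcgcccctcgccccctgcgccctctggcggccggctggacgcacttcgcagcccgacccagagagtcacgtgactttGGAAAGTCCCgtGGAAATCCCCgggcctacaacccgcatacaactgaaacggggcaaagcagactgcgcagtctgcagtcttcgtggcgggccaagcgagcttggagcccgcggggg
NFKBIZ, upstream start, chr3:101827740-101828039, plus strand: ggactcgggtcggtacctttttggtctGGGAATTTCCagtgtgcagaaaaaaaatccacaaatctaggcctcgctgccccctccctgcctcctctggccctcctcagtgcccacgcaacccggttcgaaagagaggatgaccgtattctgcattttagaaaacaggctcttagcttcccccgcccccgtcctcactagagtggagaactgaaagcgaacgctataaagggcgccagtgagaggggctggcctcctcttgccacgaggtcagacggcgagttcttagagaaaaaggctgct
NFKBIZ, downstream start, chr3:101849264-101849563, plus strand: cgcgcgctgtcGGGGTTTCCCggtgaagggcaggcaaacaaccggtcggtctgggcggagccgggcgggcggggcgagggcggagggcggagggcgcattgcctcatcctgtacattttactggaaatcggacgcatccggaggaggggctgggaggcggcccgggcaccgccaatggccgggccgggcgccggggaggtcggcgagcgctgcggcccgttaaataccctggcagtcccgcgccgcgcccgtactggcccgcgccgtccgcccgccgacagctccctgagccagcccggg
IL32, upstream start, chr16:3065153-3065452, plus strand: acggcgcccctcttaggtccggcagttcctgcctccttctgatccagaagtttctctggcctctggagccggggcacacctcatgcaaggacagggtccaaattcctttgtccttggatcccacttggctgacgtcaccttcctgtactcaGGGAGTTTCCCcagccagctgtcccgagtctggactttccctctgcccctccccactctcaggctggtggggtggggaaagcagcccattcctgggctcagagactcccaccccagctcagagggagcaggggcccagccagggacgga
NFKBIA, chr14:35404700-35404999, minus strand: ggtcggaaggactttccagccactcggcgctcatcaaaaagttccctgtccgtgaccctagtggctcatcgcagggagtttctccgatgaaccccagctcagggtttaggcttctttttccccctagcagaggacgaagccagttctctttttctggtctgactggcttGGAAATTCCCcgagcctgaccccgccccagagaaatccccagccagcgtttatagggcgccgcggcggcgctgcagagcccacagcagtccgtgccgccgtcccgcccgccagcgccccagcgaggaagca
NFKB1, upstream start, chr4:102501109-102501408, plus strand: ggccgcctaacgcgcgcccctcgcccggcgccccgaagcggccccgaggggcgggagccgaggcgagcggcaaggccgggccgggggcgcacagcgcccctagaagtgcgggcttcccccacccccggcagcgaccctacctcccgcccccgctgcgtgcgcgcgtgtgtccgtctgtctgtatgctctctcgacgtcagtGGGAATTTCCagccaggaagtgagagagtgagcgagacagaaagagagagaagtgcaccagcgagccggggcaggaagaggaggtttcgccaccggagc
TNIP3, most upstream start, chr4:121227434-121227733, minus strand: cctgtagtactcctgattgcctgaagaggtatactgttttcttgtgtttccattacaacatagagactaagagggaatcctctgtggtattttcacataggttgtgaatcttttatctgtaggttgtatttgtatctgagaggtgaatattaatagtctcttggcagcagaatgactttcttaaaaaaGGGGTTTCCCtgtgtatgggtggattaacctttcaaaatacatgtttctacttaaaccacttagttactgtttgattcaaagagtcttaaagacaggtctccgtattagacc
TNFRSF1B, chr1:12166741-12167040, plus strand: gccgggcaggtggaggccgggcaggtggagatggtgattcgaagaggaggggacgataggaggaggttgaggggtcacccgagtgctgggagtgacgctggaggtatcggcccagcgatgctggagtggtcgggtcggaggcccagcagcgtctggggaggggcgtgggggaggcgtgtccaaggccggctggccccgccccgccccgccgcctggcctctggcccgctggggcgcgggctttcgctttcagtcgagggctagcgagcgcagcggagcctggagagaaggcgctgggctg
In TNFAIP3 the matches lay at -67 to -58 and at -55 to -46, counted from the gene start. In IL32 the match lay at -99 to -89, in NFKBIA at -81 to -72, in NFKB1 at -49 to -40 and in TNIP3 at -62 to -53. The matches of NFKBIZ lay farther from its starts, at -223 to -214 and at -239 to -230. In the window of TNFRSF1B these letters were not found. The downstream starts of IL32 (window from chr16:3065534) and NFKB1 (from chr4:102501684), not printed, had no match. Of the TNIP3 windows not printed, that from chr4:121164272 had a match and that from chr4:121216578 had none.

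Promoter windows were listed for 27 of the 32 genes, several of which have more than 1 start, and 14 of the 27 (51.9%) held a match in at least 1 window. Over all 27305 genes of the table the share was 13.3%. Per window the shares were 42.6% of 47 windows and 11.3% of 35116. All 3 genes that passed the test had a match, as had NFKBIA, NFKB1, NFKB2, REL, BCL3, CYLD, NFKBIB, TNIP1, TNIP3, TRAF3 and MAP3K8. SOD2, TNFRSF1A, RELA, IKBKE, CHUK, MAP3K14, BIRC2, TRAF1, ZC3H12A, TNFAIP2, TNIP2, TNFRSF1B and LTBR had none in any window. With the shorter spelled forms GGNNTTTCC and GGNNTTCCC, whose matches can overlap those of the consensus, the counts were 16 of 27 genes (59.3%) and 14.2% of all genes. The GAS element TTCNNNGAA, bound by STAT dimers, was found in 3 of 27 genes (11.1%), against 9.38% of all genes. Per window its share went the other way, 6.38% against 7.66%. The ISRE core GAAANNGAA, bound by interferon regulatory factors and the STAT complex of type I interferon, was found in 7 of 27 (25.9%), against 9.86%. Per window the ISRE shares were 14.9% and 8.11%. A gene with more starts has more windows in which a match can fall. A match is a string of letters in a short window and says nothing of binding in these cells.

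**Figure D1:**
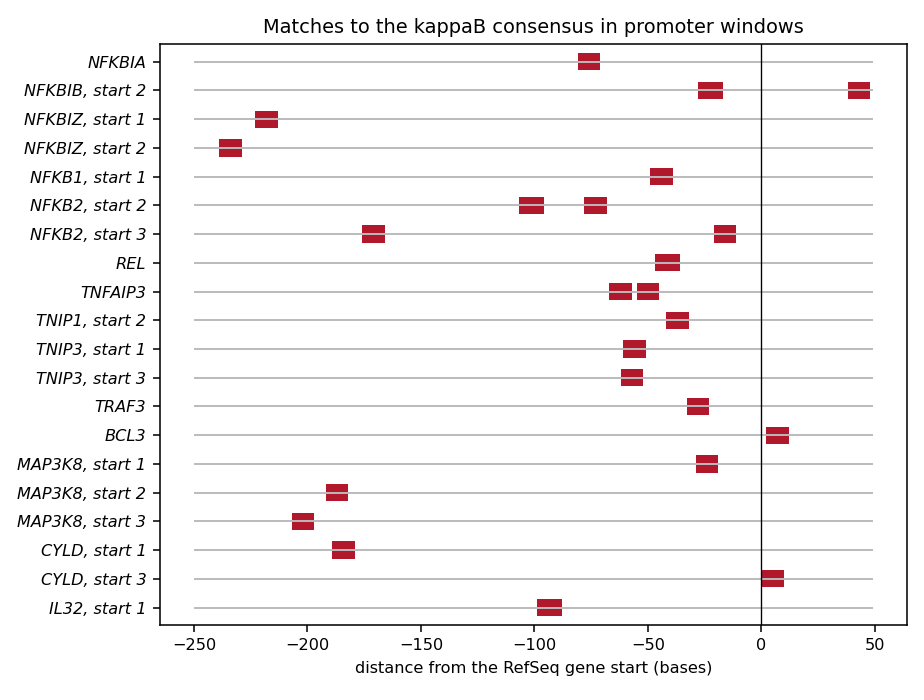
Matches to the kappaB consensus in the promoter windows that hold one. The x axis is the distance in bases from a RefSeq gene start, each grey line is 1 window, red blocks are matches and genes with several starts have 1 line per matched start, whose windows can overlap. Many matches lie shortly before the start, and the 2 matches of TNFAIP3 lie side by side.

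IL32, TNFAIP3 and NFKBIZ rose in co-culture, and none of the 31 tested genes fell, against 0.0362% of all genes. IL32 was 17.9-fold, TNFAIP3 17-fold and NFKBIZ 5.6-fold higher as a mean over the 3 lines. By limma with the cell line as a block, 3 of 31 genes (9.68%) rose at a Benjamini-Hochberg adjusted p under 0.05, against 57 of all 13808 tested genes (0.413%). No gene of the group was lower even at an unadjusted p under 0.05 in that fit, against 13% of all genes, while 22 of 31 (71%) were higher at that level, against 7.02% of all genes. The median change of the 31 genes was 1.35 on the log2 scale, and that of all tested genes was -0.04. In 24 of 31 genes the co-culture array was the higher one in all 3 lines, 77.4% of the group against 16.2% of all genes. In 17 of 31 genes (54.8%) all 3 co-culture arrays lay above all 3 arrays grown alone, which held for 4.03% of all genes. At least 2-fold higher in each of the 3 lines were 7 of 31 genes (22.6%), against 0.898%: IL32, TNFAIP3, SOD2, NFKBIA, NFKBIZ, IER3 and NFKB1. The genes were chosen with earlier results of these data known, so these counts describe the group.

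**Figure D2:**
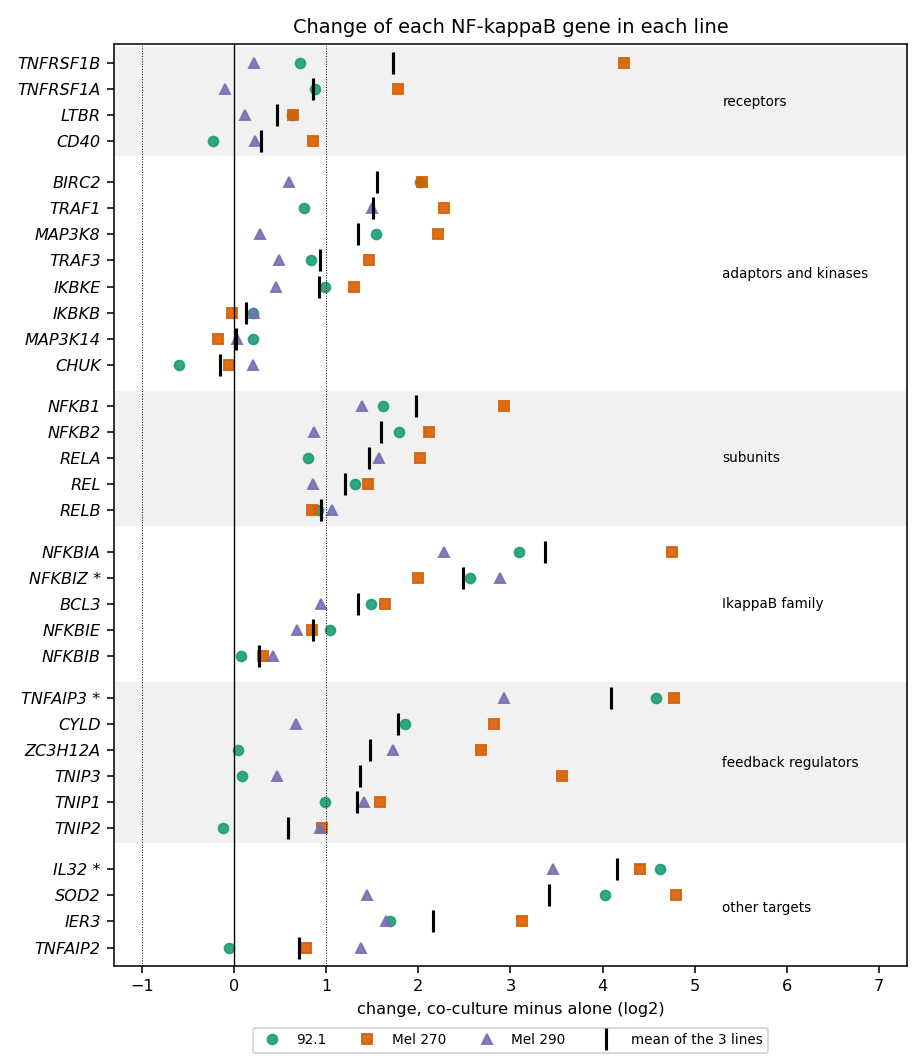
Change of each NF-kappaB gene in co-culture minus alone (x axis, log2), by role from receptors at the top to other targets at the bottom. Circles are 92.1, squares Mel 270, triangles Mel 290, black ticks the mean of the 3 lines, dotted lines a 2-fold difference, and an asterisk marks the 3 genes with an adjusted p under 0.05. Mel 270 has the largest change for most genes, and IKBKB and MAP3K14 lie within 0.22 of 0 in all lines.

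The call count depended on which lines entered the fit. Without 92.1 only IL32 was called. Without Mel 270 there were 6 calls, with NFKBIA, NFKB1 and IER3 added, and without Mel 290 there were 4, IL32, TNFAIP3, SOD2 and BIRC2. Each such fit rests on 2 lines. Arrays of bulk RNA cannot tell fewer responding cells from less RNA per cell.

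Markers of leukocytes were measured alongside, since T cells express many of the same genes. Of 19 T cell markers 9 were tested and none passed in limma, where 0.413% of all genes rose and 0.0362% fell. At an unadjusted p under 0.05 there were 0, against 7.02% of all genes higher and 13% lower. A count of 0 among so few genes says little by itself. The CD3 chains CD3D, CD3E and CD3G lay below the filter level on every array, the highest value being 5.70 in co-culture and 5.62 alone. PTPRC, the pan-leukocyte phosphatase CD45, lay between 3.77 and 3.90 in co-culture and between 3.78 and 4.04 alone. The log2 of the summed T cell markers ranged from 10.25 to 11.48 in co-culture and from 10.26 to 11.11 alone, and IL7R stood at 10.43 in co-cultured Mel 290 and 9.75 in Mel 290 alone. Of 10 monocyte and macrophage markers 5 were tested, and 0 passed. In limma 1 (CD68) was higher at an unadjusted p under 0.05, against 7.02% of all genes. The sums of these 10 markers were 10.73 to 11.93 in co-culture and 10.22 to 11.42 alone. The part of CD68 in the results was not tested. LYZ reached 3.73 in co-culture and 3.76 alone. FCER1G, below the filter level on every array, had 4.44, 5.46 and 5.58 in co-cultured 92.1, Mel 270 and Mel 290, against 4.35, 4.36 and 4.57 alone, which is 2.15-fold higher in Mel 270 and 2.02-fold in Mel 290. For the B cell markers 4 were tested with 0 calls at either level, against the same shares of all genes as for the T cell markers. Their sums were 8.26 to 8.66 in co-culture and 8.37 to 8.68 alone. MS4A1, also below the filter level throughout, was 2.07-fold higher in Mel 270. Of 10 melanocyte markers tested, 0 passed and 4 were lower at an unadjusted p under 0.05 in limma (MITF, SLC45A2, TYR and GPR143), against 13% of all genes, with sums of 10.37 to 14.52 in co-culture and 10.92 to 14.91 alone. The melanocyte markers MLANA, TYR and TYRP1 were below the filter level in Mel 290, at 5.05, 4.64 and 5.02 in co-culture and 4.92, 4.79 and 5.19 alone. MLANA had 11.93 and 11.25 in co-cultured 92.1 and Mel 270, against 12.18 and 12.46 in these lines grown alone. MITF, the melanocyte transcription factor, had 10.22, 8.93 and 8.16 in co-cultured 92.1, Mel 270 and Mel 290, against 11.01, 11.03 and 8.96 alone (limma adjusted p = 0.12). SLC45A2, a transporter of the pigment granule, had 7.52, 5.46 and 5.27 in co-culture, against 10.02, 6.56 and 6.66 alone. It was at least 2-fold lower in all 3 lines without passing the limma test (adjusted p = 0.085). Its co-culture values in Mel 270 and Mel 290 lay below the filter level, so the folds in these lines rest on background. TYR had 9.39 in 92.1 and 9.63 in Mel 270 in co-culture, against 10.96 and 11.72 alone. MITF and TYR had their largest difference in Mel 270 and SLC45A2 in 92.1, and the part of these markers in the results was not tested.

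The 4 receptors differed in which lines carried a change, and none passed the limma test. At an unadjusted p under 0.05 in limma 1 (LTBR) was higher, against 7.02% of all genes. TNFRSF1B encodes the second TNF receptor, which lacks a death domain and is best known from lymphocytes and myeloid cells. Its log2 value was 7.33 in 92.1, 10.79 in Mel 270 and 6.64 in Mel 290 in co-culture, against 6.61, 6.56 and 6.42 in the same lines grown alone. The Mel 270 co-culture thus stood apart from the other 5 arrays, 18.8-fold above its own control, and the mean change was 1.72 ± 2.19 (SD, n = 3 lines, limma adjusted p = 0.32). TNFRSF1A, the widely expressed TNF receptor with a death domain, had 9.47, 9.87 and 9.56 in co-cultured 92.1, Mel 270 and Mel 290. Grown alone it had 8.59, 8.09 and 9.65. Mel 290 without T cells was thus already at the level of the co-cultures, and its own change was -0.10, beside 0.88 in 92.1 and 1.78 in Mel 270 (adjusted p = 0.28). LTBR, the lymphotoxin beta receptor, had a change of 0.63 in 92.1, 0.64 in Mel 270 and 0.12 in Mel 290 (adjusted p = 0.21). CD40 lay near the filter level, from 5.51 to 6.67 in co-culture and from 5.66 to 5.81 alone.

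The adaptors and kinases separated into a part that was higher and a part that hardly moved. None of the 8 measured was called, and 5 were higher at an unadjusted p under 0.05 in limma, against 7.02% of all genes. BIRC2 encodes a ubiquitin ligase that acts at TNF receptors and keeps the kinase of MAP3K14 low. It had 10.80, 10.61 and 9.38 in co-cultured 92.1, Mel 270 and Mel 290, against 8.78, 8.58 and 8.78 alone. The groups did not overlap, and all 3 co-culture arrays lay above all 3 alone in 4.03% of all genes. The mean change of BIRC2 was 1.55 ± 0.83 (limma adjusted p = 0.10). Without Mel 290 it was 2.03 (adjusted p = 0.046, and 0.046 to 0.54 over all 11 alternatives). TRAF1, an adaptor that binds TNF receptors together with TRAF2, had 5.73, 7.76 and 7.31 in co-culture and 4.96, 5.48 and 5.81 alone. Its values alone lay near or below the filter level, and the groups overlapped (change 1.51 ± 0.76, adjusted p = 0.094). MAP3K8, a kinase that links NFKB1 protein to the ERK pathway, had 8.01, 8.90 and 7.42 in co-culture, against 6.47, 6.69 and 7.14 alone, which is a change of 1.54 in 92.1, 2.21 in Mel 270 and 0.28 in Mel 290 (adjusted p = 0.15). TRAF3, which restrains the non-canonical branch, had a change of 0.93 ± 0.49 (adjusted p = 0.11).

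CHUK and IKBKB encode the catalytic subunits of the IkappaB kinase complex, and their groups overlapped. CHUK had a change of -0.60 in 92.1, -0.05 in Mel 270 and 0.20 in Mel 290 (adjusted p = 0.73), and IKBKB by 0.20, -0.02 and 0.22 (adjusted p = 0.65). MAP3K14, the kinase of the non-canonical branch, stayed between 6.30 and 6.93 in co-culture and between 6.43 and 6.90 alone. IKBKE, an inducible relative of the IkappaB kinases that also acts in interferon induction, had 8.80, 8.67 and 7.10 in co-culture and 7.81, 7.37 and 6.64 alone, a change of 0.92 ± 0.42 (adjusted p = 0.10).

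All 5 NF-kappaB subunit genes were higher in co-culture in each of the 3 lines, against 16.2% of all genes. Their groups did not overlap, and all 3 co-culture arrays lay above all 3 alone in 4.03% of all genes. None passed the adjusted threshold in limma, while all 5 were higher at an unadjusted p under 0.05, against 7.02% of all genes. NFKB1, the precursor of a subunit of the canonical dimer, had 9.58 in 92.1, 11.14 in Mel 270 and 9.38 in Mel 290 in co-culture. Alone the same lines had 7.96, 8.21 and 7.99. The lines were thus nearly equal without T cells and differed by 1.76 with them. The mean change of NFKB1 was 1.98 ± 0.83 (3.94-fold, adjusted p = 0.080), and without Mel 270 it was 1.50 and called (adjusted p = 0.045; 0.045 to 0.53 over the alternatives). NFKB2, the precursor subunit of the non-canonical branch, had 9.29, 9.84 and 8.86 in co-culture, against 7.50, 7.72 and 7.99 alone (change 1.59 ± 0.65, adjusted p = 0.080). RELA, the main activating subunit, had 8.84, 10.01 and 10.12 in co-culture, against 8.04, 8.00 and 8.56 alone (change 1.46 ± 0.61, adjusted p = 0.083). Here 92.1 had the smallest change, 0.80, and Mel 270 the largest, 2.02. REL, a subunit prominent in lymphocytes, had a change of 1.31 in 92.1, 1.45 in Mel 270 and 0.86 in Mel 290 (adjusted p = 0.067). RELB, the partner of the NFKB2 product, had a change of 0.91 in 92.1, 0.85 in Mel 270 and 1.06 in Mel 290, the most even response among the subunits (0.94 ± 0.11, adjusted p = 0.067).

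The IkappaB family ranged from a large change in NFKBIA to a slight one in NFKBIB. NFKBIA encodes IkappaB alpha, the fast feedback inhibitor that pulls NF-kappaB out of the nucleus. Its level was 11.78 in 92.1, 12.27 in Mel 270 and 11.25 in Mel 290 in co-culture, against 8.69, 7.52 and 8.97 alone. The groups lay well apart, and all 3 co-culture arrays lay above all 3 alone in 4.03% of all genes. With unequal folds of 8.50, 26.9 and 4.85, the mean change of 3.37 ± 1.26 had a limma adjusted p of 0.070. Without Mel 270 the change was 2.68 and called (adjusted p = 0.013; 0.013 to 0.15 over the alternatives). NFKBIZ encodes IkappaB zeta, a nuclear member of the family that assists transcription of secondary response genes such as IL6. It had 8.69, 10.25 and 9.51 in co-cultured 92.1, Mel 270 and Mel 290, against 6.13, 8.25 and 6.62 alone. NFKBIZ rose by 2.48 ± 0.45 (adjusted p = 0.022), with the largest change in Mel 290 (2.89) and the smallest in Mel 270 (2.00). The call was lost without 92.1 (adjusted p = 0.068), without Mel 290 (0.062) and without the block (0.58), and over all alternatives adjusted p ran from 0.0057 to 0.58.

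BCL3, another nuclear IkappaB protein that works with the NFKB1 and NFKB2 products, had a change of 1.49, 1.64 and 0.94 in 92.1, Mel 270 and Mel 290 (mean 1.35 ± 0.37, adjusted p = 0.067). NFKBIE, IkappaB epsilon, had 8.94, 8.66 and 8.08 in co-culture and 7.90, 7.80 and 7.40 alone (change 0.86 ± 0.18, adjusted p = 0.075). The groups of both genes did not overlap, and all 3 co-culture arrays lay above all 3 alone in 4.03% of all genes. NFKBIB, IkappaB beta, had a change of 0.27 ± 0.17 (adjusted p = 0.35), and its groups overlapped.

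Of the feedback regulators TNFAIP3 passed the test. It encodes a ubiquitin-editing enzyme that takes apart the signalling complexes below TNF and Toll-like receptors. Its level was 9.96 in 92.1, 11.08 in Mel 270 and 9.42 in Mel 290 in co-culture, against 5.38, 6.31 and 6.49 alone. The lowest co-culture stood 2.93 above its own control, and TNFAIP3 rose by 4.09 ± 1.01 (adjusted p = 0.036). The value of 92.1 alone lay below the filter level, so the 23.9-fold difference in that line was measured against background. The call was lost without 92.1 (adjusted p = 0.074), after cyclic loess (0.075) and without the block (0.10), with 0.015 to 0.10 over the alternatives.

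TNIP1, TNIP2 and TNIP3 encode partner proteins of the TNFAIP3 enzyme that bind ubiquitin chains. TNIP1 had 8.04, 9.23 and 9.36 in co-culture and 7.05, 7.64 and 7.95 alone, a change of 1.33 ± 0.31 (limma adjusted p = 0.065). The groups did not overlap but nearly met, at 8.04 in co-cultured 92.1 and 7.95 in Mel 290 alone. All 3 co-culture arrays lay above all 3 alone in 4.03% of all genes. TNIP2 had a change of -0.12 in 92.1 but by 0.95 in Mel 270 and 0.93 in Mel 290 (adjusted p = 0.29). TNIP3 stood at 4.40, 8.21 and 4.90 in co-culture, against 4.30, 4.65 and 4.42 alone. Of the 6 arrays only the Mel 270 co-culture was above the filter level, so TNIP3 was not tested, and its 11.8-fold difference in Mel 270 rests on a control at background. For TNFRSF1B as well, the Mel 270 co-culture was the highest array.

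CYLD, a deubiquitinase that restrains the pathway, had 9.48, 10.02 and 10.20 in co-cultured 92.1, Mel 270 and Mel 290. Alone it had 7.62, 7.20 and 9.54, so that Mel 290 without T cells exceeded the co-cultured 92.1. The change was 1.78 ± 1.08 (adjusted p = 0.11). ZC3H12A, a ribonuclease that degrades inflammatory messages such as IL6, had 7.14, 9.90 and 9.31 in co-culture and 7.10, 7.22 and 7.59 alone. Its change was 0.04 in 92.1, and it was 6.40-fold higher in Mel 270 and 3.29-fold higher in Mel 290 (mean change 1.48 ± 1.34, adjusted p = 0.20).

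Of the other targets IL32 passed the test. IL32 encodes a cytokine that induces TNF and other cytokines in monocytes. It had 11.59, 11.37 and 10.99 in co-cultured 92.1, Mel 270 and Mel 290, against 6.97, 6.96 and 7.54 alone. The lines were close to each other in both cultures, with a gap of 0.59 in co-culture and 0.57 alone. IL32 rose by 4.16 ± 0.62 (adjusted p = 0.0090), and it was called in all 11 alternatives (adjusted p 0.0055 to 0.023). SOD2 encodes the mitochondrial superoxide dismutase, a survival gene induced by TNF. Its level was 12.04, 12.68 and 12.41 in co-culture, against 8.01, 7.87 and 10.97 alone. Mel 290 alone was already high, and its fold was 2.71, beside 16.3 in 92.1 and 27.9 in Mel 270. The mean change of SOD2 was 3.42 ± 1.76 (adjusted p = 0.090), and without Mel 290 it was 4.42 and called (adjusted p = 0.034; 0.034 to 0.54 over the alternatives).

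IER3, an immediate early gene that protects cells from TNF-induced death, had 9.55, 12.66 and 11.84 in co-cultured 92.1, Mel 270 and Mel 290. Alone it had 7.86, 9.52 and 10.19. The groups overlapped, because 92.1 in co-culture stayed below Mel 290 alone, though each line was at least 3.14-fold higher than its own control. The mean change was 2.16 ± 0.85 (limma adjusted p = 0.075). Without Mel 270 it was 1.67 and called (limma adjusted p = 0.026, and 0.026 to 0.92 over the alternatives). The 3 probe sets of IER3 gave the same mean change of 2.16, but they read 1 gene on the same arrays and are not independent checks. TNFAIP2, a TNF-induced gene of membrane protrusions, had a change of -0.06 in 92.1, 0.78 in Mel 270 and 1.38 in Mel 290 (adjusted p = 0.27).

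**Figure D3:**
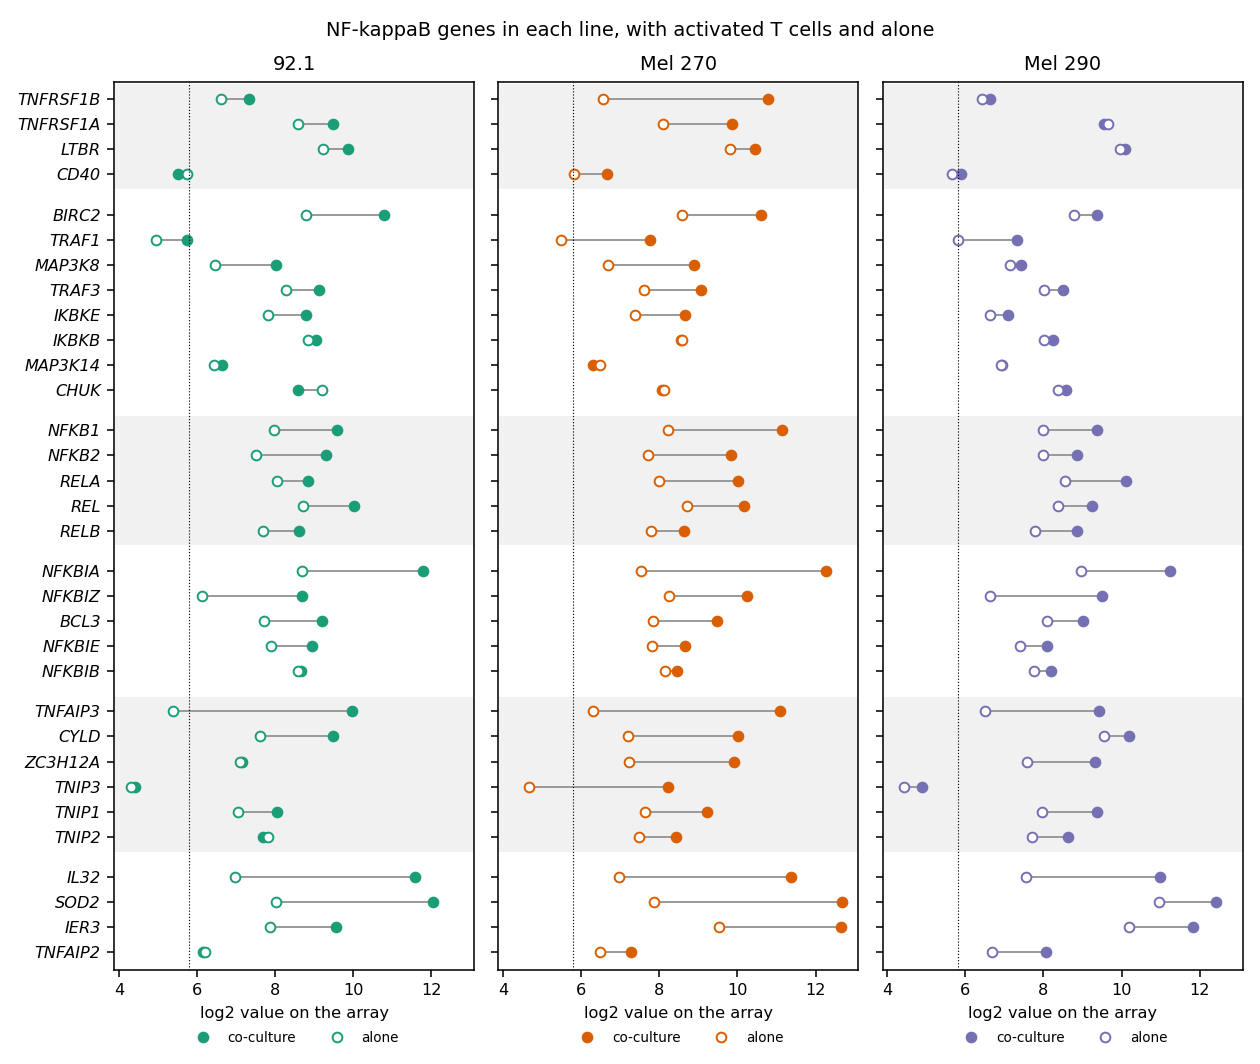
Log2 value (x axis) of each NF-kappaB gene in 92.1, Mel 270 and Mel 290, by role from receptors at the top to other targets at the bottom. Filled points are co-culture, open points are the line grown alone, and the dotted line is the filter level of 5.80. TNFRSF1B and TNIP3 move far in Mel 270 only, and SOD2 and CYLD start high in Mel 290.

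The lines differed in how many of these genes were higher, and these values rest on a single pair of arrays in each line. At least 2-fold higher were 14 of 31 genes in 92.1, 21 in Mel 270 and 13 in Mel 290, against 3.63%, 5.29% and 2.07% of all tested genes. No gene of the group was at least 2-fold lower in any line, against 2.71%, 4.52% and 2.3% of all tested genes. The median change of the 31 genes was 0.99 in 92.1, 1.78 in Mel 270 and 0.87 in Mel 290, and that of all genes was -0.08, -0.06 and 0.01. Of the 24 genes at least 2-fold higher in some line, 19 had their largest change in Mel 270, 2 in 92.1 (IL32 and NFKBIE) and 3 in Mel 290 (NFKBIZ, RELB and TNFAIP2). Of all genes at least 2-fold higher in some line, 57.1% had it in Mel 270, 30.8% in 92.1 and 12.1% in Mel 290.

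**Figure D4:**
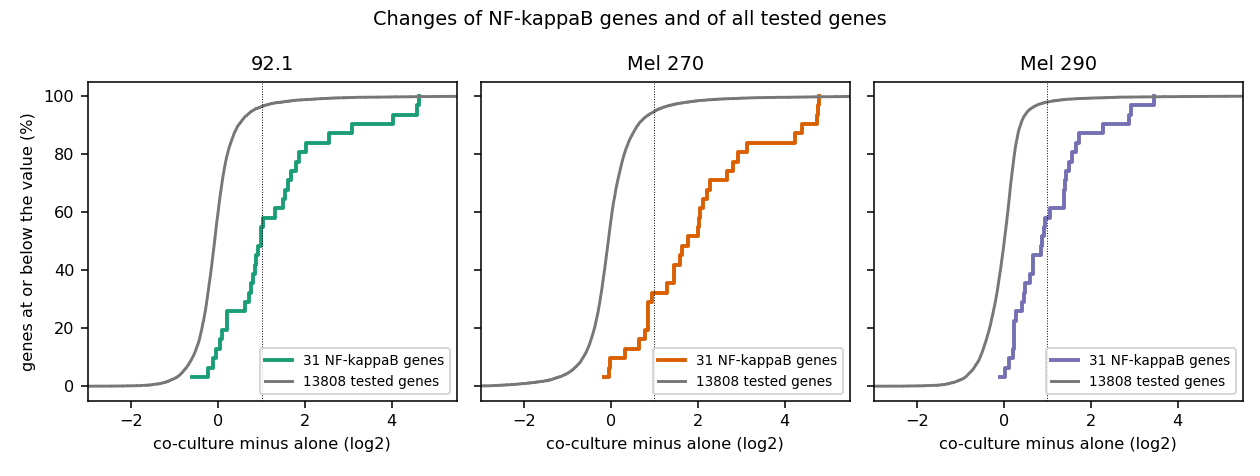
Cumulative share of genes (y axis, percent) at or below a given change in co-culture minus alone (x axis, log2) in each line. Coloured steps are the 31 tested NF-kappaB genes, grey curves all 13808 tested genes, and the dotted line is a 2-fold rise. The coloured steps lie to the right of the grey curve in all 3 lines and farthest in Mel 270.

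Levels also differed between lines as a mean over both cultures. This was tested in the same limma fit with 2 contrasts, adjusted over all genes in each. The contrasts do not test either culture by itself. The spread in that fit holds the unequal responses of the lines. In Mel 290 minus the mean of 92.1 and Mel 270, 3 of 31 genes were lower, against 14.9% of all genes, and 1 was higher, against 11.3%. IKBKE was lower in Mel 290 by a difference of -1.29 (SE 0.21, adjusted p = 0.013), IKBKB by -0.62 (SE 0.14, adjusted p = 0.030) and NFKBIE by -0.59 (SE 0.14, adjusted p = 0.039). IKBKB had 8.24 in Mel 290, against 9.04 in 92.1 and 8.55 in Mel 270, in co-culture, and 8.02, against 8.83 and 8.57, alone. TNIP1 was higher in Mel 290 by 0.67 (SE 0.17, limma adjusted p = 0.046). In co-culture TNIP1 had 9.36 in Mel 290, against 8.04 in 92.1 and 9.23 in Mel 270, and 7.95, against 7.05 and 7.64, alone. NFKBIE was not called after quantile normalization or cyclic loess, and TNIP1 was not called with a trend in the prior variance. In 92.1 minus Mel 270, 2 of 31 genes were lower, against 2.74% of all genes, and 0 were higher, against 5.31%. They were IER3, with a difference of -2.39 (SE 0.40, adjusted p = 0.035), and NFKBIZ, with -1.84 (SE 0.25, adjusted p = 0.022). For Mel 290 the shares of the group, 9.68% lower and 3.23% higher, were below those of all genes. For 92.1 minus Mel 270 the 2 lower genes were 6.45% of the group, above the share of all genes, and rest on a count of 2.

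Without T cells, 4 of 31 genes were at least 4-fold apart between the highest and the lowest line, against 8.39% of all tested genes: SOD2 (gap 3.09), CYLD (2.34), IER3 (2.33) and NFKBIZ (2.12). In co-culture the gap of SOD2 was 0.64 and that of CYLD 0.72, and the gap of TNFRSF1A was 0.40, against 1.56 alone. Other genes went the opposite way. The gap was 4.15 in co-culture and 0.20 alone for TNFRSF1B, 3.81 and 0.34 for TNIP3, 2.76 and 0.49 for ZC3H12A and 1.42 and 0.20 for BIRC2. In all, the lines lay farther apart in co-culture than alone for 21 of 31 genes (67.7%), and this was so for 57.8% of all tested genes.

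**Figure D5:**
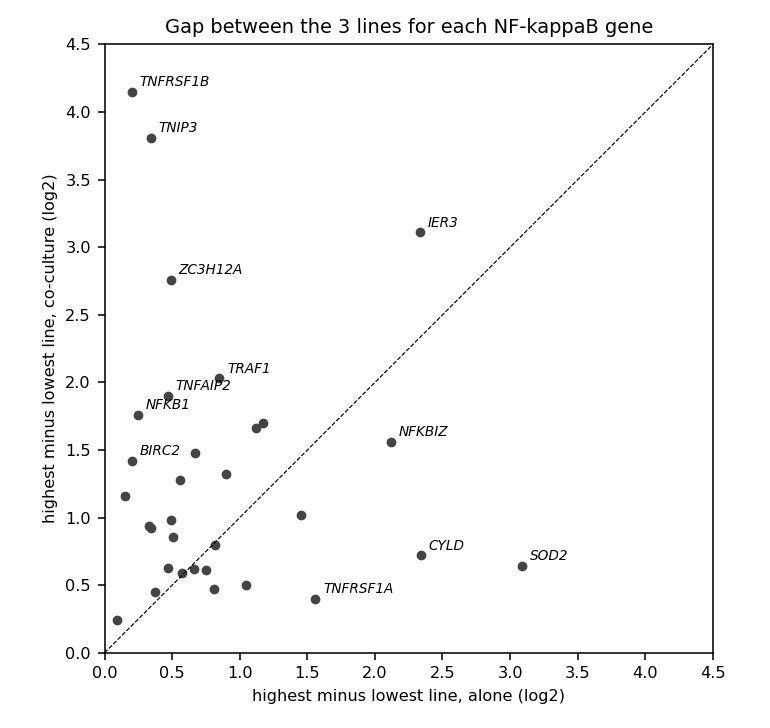
Gap between the highest and the lowest of the 3 lines in co-culture (y axis, log2) against the gap alone (x axis, log2), 1 point per NF-kappaB gene and no replicate for a gap. The dashed line marks equal gaps. TNFRSF1B, TNIP3 and ZC3H12A lie far above it, and SOD2, CYLD and TNFRSF1A lie below it.

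Other genes of the pathway, from a list of 59 adaptors, receptors and regulators, were counted in the same fit. Of these 55 had a probe set and 48 were tested, with a median change of 0.22, against 1.35 for the 31 genes above and -0.04 for all genes. In limma 0 rose and 0 fell, while 15 were higher and 2 lower by unadjusted p at the same level, against 7.02% and 13% of all genes. By class the median changes were 0.71 for 9 receptors, 0.22 for 22 adaptors and kinases and 0.01 for 17 regulators. At least 2-fold higher in all 3 lines were RIPK2, the kinase of the NOD receptors, and TLR3, the receptor for double-stranded RNA. This held for 0.898% of all tested genes. RIPK2 had 12.37, 11.71 and 11.78 in co-cultured 92.1, Mel 270 and Mel 290, against 9.34, 9.66 and 10.10 alone (adjusted p = 0.065). TLR3 had 10.65, 10.26 and 7.15 in co-culture, against 7.57, 7.71 and 6.03 alone (limma adjusted p = 0.083). The largest mean change of the list was that of TNFRSF9, 3.58, which missed this cut in Mel 290 (limma adjusted p = 0.14). It had 9.72, 11.40 and 6.07 in co-culture, against 5.48, 5.64 and 5.32 alone. Its values alone lay below the filter level, so its folds rest on background.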

How the data were processed

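Total RNA of 6 cultures was measured on biotin-labelled arrays. The deposited values are log2 intensities, as their range of 1.49 to 13.89 shows, and were made by the authors with Affymetrix Expression Console 1.2.0.20, per the submitters' processing notes. How background was corrected and probes were summarized or normalized is not stated in the labels. Array medians ran from 6.63 to 6.69, so no further scaling was applied. Precision is limited by having 6 arrays, and a fold of a gene near background is uncertain.

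Of 33297 probe sets, 19460 had exactly 1 symbol in the array annotation and 1754 had several. Symbols were updated through RefSeq gene IDs (19429 matched). Genes with a mean of at least 5.80 were tested, 13808 in all. Co-culture was compared with growth alone by limma 3.58.1 in R 4.3.3 (lmFit, eBayes), with cell line as a block, and p-values were adjusted over these genes by Benjamini-Hochberg. The fit had 2 residual and 3.1 prior degrees of freedom. It was also run on simulated data, with variances drawn from the fitted prior and the same change in all lines. Such data cannot show how the fit handles unequal responses of the lines. The labels name the same line in both groups, and arrays of a line deviated together from the group means (r = 0.74 to 0.83 across genes). An exact permutation test within 3 pairs cannot go below p = 0.25. Changes are co-culture minus alone on the log2 scale, as mean ± SD over 3 lines.

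Given array by array are genes called in a contrast, at least 2-fold apart in all 3 lines, or at least 4-fold apart in any line or between lines grown alone. The remaining members are given in short, and other pathway genes only where at least 2-fold apart in all 3 lines. TNFRSF9 was added as the one of these with the largest mean change. The members and lists were chosen with earlier results of these data known. Alternatives covered normalization, filter, low values, block, probe sets, prior variance and each line left out.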

Additional observations from a re-analysis of the deposited data

How the results depend on the processing

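Of 337 values of single genes under 11 alternatives, 324 kept their direction and their side of the threshold, 6 lost the call, 5 gained it and 2 changed sign. Quantile normalization, no filter, a filter at the 50th percentile (7.11), low values raised to 5.80, the mean of all probe sets and a trend in the prior variance each left IL32, TNFAIP3 and NFKBIZ called, and cyclic loess left IL32 and NFKBIZ. Without the replicate block that pairs the arrays of a line, 1 gene was called in place of 3. With a line left out, 1 to 6 genes were called. CHUK ranged from -0.33 to 0.07 and MAP3K14 from -0.07 to 0.11 in these fits, without a call, and their sign turned without 92.1. The cause of the lost and gained calls was not tested. Line contrasts gave 5 or 6 calls under the 7 alternatives run for them, and MAP3K14 was also called for Mel 290 after quantile normalization. The counts of genes at least 2-fold apart were 14 to 16 in 92.1, 22 in Mel 270 with TNIP3 and 13 in Mel 290. Signal near background limits CD40, TRAF1, TNIP3 and TNFAIP3 in 92.1 alone.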
